A study of Homo sapiens with 3 samples.

Results

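The genes measured in H446 cells after 48 h with 10 µM 3-bromoascochlorin (BAS) were set against those of cells kept for 48 h with the vehicle control. H446 is an established line of small cell lung cancer, and BAS is a brominated form of the fungal metabolite ascochlorin. Both groups were the same line in the same serum medium, and each was 1 library, so the comparison holds 2 libraries of the 3 in the series. The third library, cells given 5 µM BAS for 48 h, is shown beside them as a further value of each gene. The members are the genes whose mean was 1 FPKM or more (fragments per kilobase of transcript, relative to all mapped fragments), taken over the vehicle and 10 µM libraries, and 11517 of 16793 gene symbols met this rule. With 1 library per group there is no replicate spread, no test and no p-value, and the text gives sizes of difference only. The 2-fold limit was a difference of 1 in log2(FPKM + 1), which shrinks the differences of genes with low values. Where a ratio is given, it is the FPKM at 10 µM divided by the FPKM with vehicle. Each run of 3 gene values names the vehicle library first, then 5 µM, then 10 µM. Columns of both treated libraries are headed by codes that do not spell BAS, so the doses rest on the sample labels. In RNA from whole cultures, fewer cells of a type and less RNA per cell cannot be told apart.

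All values of the vehicle library added up to 487923 FPKM and those of the 10 µM library to 492102 FPKM, and the read depth is unknown because no counts were used here. Markers of small cell lung cancer were those of the NEUROD1 form of the disease: NEUROD1, a neurogenic transcription factor, was at 104.96, 93.15 and 91.62 FPKM, and INSM1, a neuroendocrine factor, at 72.85, 81.79 and 95.14 FPKM. POU2F3 and YAP1, which mark other forms, were at 0.07 FPKM or lower in all 3 libraries. Genes of leukocytes summed to 4.92 FPKM in the vehicle library and 9.95 FPKM in the 10 µM library, with 2 of 7 members past the filter. PTPRC, which defines leukocytes, was at 1.03 and 1.09 FPKM, and CD68, a lysosomal protein abundant in macrophages, was at 2.85 and 7.34 FPKM and past the 2-fold limit, most of the difference in the sum. Genes of alveolar cells summed to 2.16 and 1.27 FPKM, with 0 of 6 past the filter. Fibroblast genes summed to 753.77 and 926.44 FPKM, nearly all of it the collagen genes COL1A1, COL1A2 and COL3A1, while DCN and LUM, which define fibroblasts, were at or below 0.31 FPKM. Endothelial genes summed to 59.17 and 53.66 FPKM, of which CDH5 made 57.56 and 51.99 FPKM, and PECAM1 was at 0.10 and 0.11 FPKM. The part of these cell types in the gene differences was not tested.

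Cells short of amino acids, with unfolded proteins in the endoplasmic reticulum or with failing mitochondria, phosphorylate the initiation factor eIF2, which slows translation and favours the transcription factor ATF4. ATF4 pairs with C/EBP proteins at composite sites and drives genes for amino acid uptake and synthesis, for secreted stress hormones and for its own feedback. MAPK cascades, named in the study's title, pass growth factor and stress signals to immediate early genes of the AP-1 family.

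The DNA before the start of several of the highest genes holds the letters of that composite site. The motif searched was TGATGNAAN, on both strands, within the 250 bases before each start listed by RefSeq on GRCh38.p14. Of 9436 promoters matched, 211 (2.24%) held it. Among the 20 members of the stress response lists that were at least 2-fold higher, 18 had a promoter and 5 of these (27.8%) held it. The lists gather genes already tied to that response and the 20 were picked by their difference, so this share does not tie the motif to the difference. Members of the lists not past the limit also held the motif. Their share is void, since 75.3% of all 81 list genes past the filter had a promoter. Of 77 genes at least 2-fold lower, 65 had a promoter and 0 held it. The windows of those 5 genes are shown, 5′ to 3′ on the strand of the gene, in lower case with the motif in capitals; capitals that begin ATTGC or GTTGC carry it on the opposite strand.
FGF21, chr19:48755445-48755501, plus strand: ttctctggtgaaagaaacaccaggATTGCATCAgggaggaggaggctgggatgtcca
ASNS, chr7:97872444-97872500, minus strand: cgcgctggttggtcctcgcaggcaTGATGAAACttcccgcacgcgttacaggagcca
CHAC1, chr15:40953237-40953293, plus strand: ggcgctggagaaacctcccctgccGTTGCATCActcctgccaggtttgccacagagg
JDP2, chr14:75427982-75428021, plus strand: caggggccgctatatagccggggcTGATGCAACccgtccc
ATF3, chr1:212565192-212565248, plus strand: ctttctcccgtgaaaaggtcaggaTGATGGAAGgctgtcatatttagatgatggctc
The match in FGF21 begins 55 bases before the listed start and that in ASNS 68 bases before it. The same bases before FGF21 also lie before FUT1, a fucosyltransferase gene that is its neighbour on the opposite strand, 119 bases from its start. FUT1 was at 0.90, 4.21 and 5.98 FPKM, a ratio of 6.64 for a gene that passed the filter only through the 10 µM library, and FGF21 at 4.93, 38.43 and 53.94 FPKM. The composite site was not alone in its share among the 18 promoters of higher list members. TATAAA, the TATA box, was also in 5 (27.8%), where 7.69% of all held it. TGANTCA, the AP-1 site, was in 3 (16.7%), where 5.51% of all held it. The metal element TGCNCNC (44.4%) and the E2F site TTTCCCGC (0) were below their shares of all, 64.2% and 2.94%. A match is a description of letters, and a promoter without one says nothing about the factor.

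At 10 µM, 151 genes (1.31% of those compared) lay past the 2-fold limit on the higher side and 77 (0.669%) on the lower side. At 5 µM, with the same vehicle library as control, the counts over the same genes were 61 (0.53%) and 28 (0.243%). At a limit of 1.5-fold, 695 genes (6.03%) were higher and 401 (3.48%) lower at 10 µM, and at 4-fold 18 (0.156%) and 4 (0.0347%). Most genes moved little. Over all genes compared, 6489 were above vehicle, 5009 below and 19 equal, so a modest majority above vehicle in a list was shared with all genes. The median difference was 0.05 on the log2 scale, the middle of the genes from the 25th to the 75th percentile ran from −0.15 to 0.25, and 90.5% lay within 1.5-fold of vehicle. At the edge of the limit, RGS2 and TNNI3 were just inside and SAMD11 and DUSP5 just outside on the higher side; FBXO4 and PSAPL1 were inside and KCNH8 and DBP outside on the lower side. At the edge of the filter, FBXL8, SMTNL2 and GPR146 had a mean of 1.00 FPKM and were kept, and LIG4, GIP and SPATA13 had a mean of 0.995 FPKM and were left out.

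**Figure D1:**
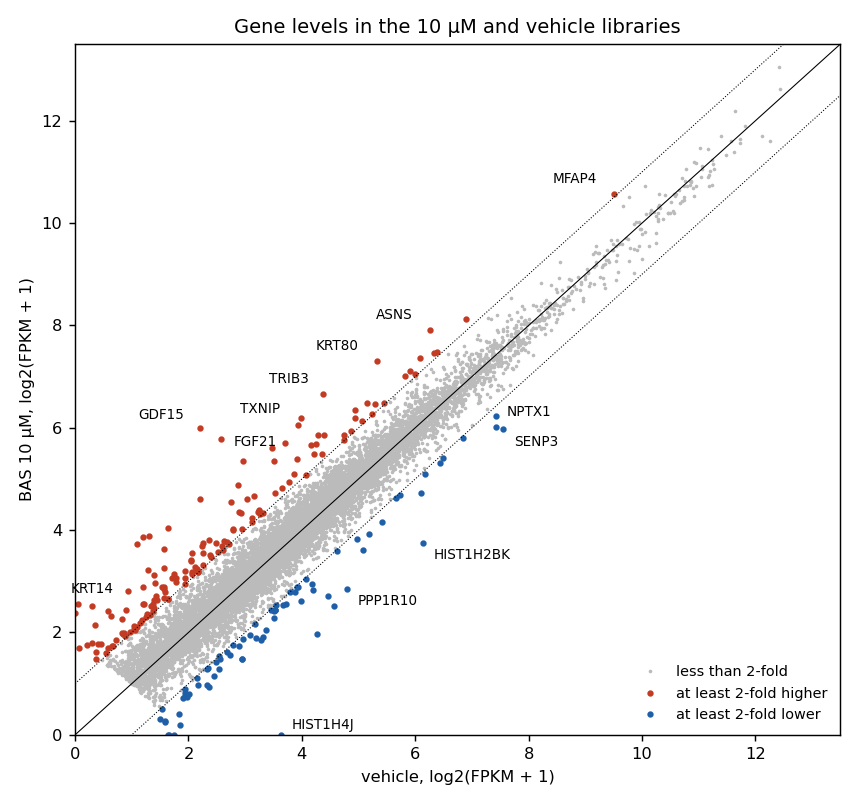
Each point is a gene, with log2(FPKM + 1) in the vehicle library on the horizontal axis and in the 10 µM library on the vertical axis; dotted lines mark 2-fold differences on this scale. The 151 genes in red lie mostly at low vehicle levels (GDF15 at 3.60 FPKM, KRT14 at 0.04 FPKM), and the 77 in blue include SENP3 and NPTX1, which were above 100 FPKM with vehicle.

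Low genes made up much of the higher set. The vehicle level had a median of 3.43 FPKM in the 151 higher genes, 9.30 FPKM in the 77 lower genes and 12.09 FPKM in all. Of the higher genes, 27 were under 1 FPKM with vehicle and passed the filter only through their 10 µM value, and 19 of the lower genes passed only through their vehicle value; such genes had to differ. Among the 2756 genes with a mean of 1 to 5 FPKM, 60 (2.18%) were higher and 33 (1.2%) lower. Among the 700 genes above 100 FPKM, 6 (0.857%) were higher and 3 (0.429%) lower.

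**Figure D2:**
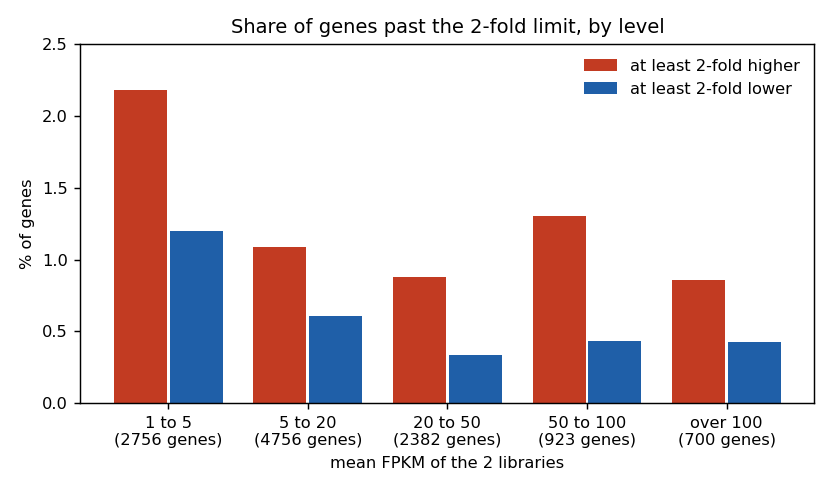
Bars give the percentage of genes at least 2-fold higher (red) or lower (blue) at 10 µM in 5 classes of mean FPKM, with the number of genes in each class below it. The share of higher genes is 2.18% in the lowest class and 0.857% in the highest, and in every class it exceeds the share of lower genes.

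Regulators of the stress response were higher as a group. Of 12 transcription factors and cofactors of this response, 6 were at least 2-fold higher and 0 lower, and the median difference was 0.77, where that of all genes was 0.05. ATF4 itself was at 233.77, 353.69 and 331.17 FPKM, a ratio of 1.42. Its transcript level was thus above vehicle in both treated libraries, and higher at 5 µM than at 10 µM. ATF3, a stress-induced repressor of the same family, was at 7.92, 20.25 and 24.41 FPKM, and JDP2, which dimerises with JUN, at 1.96, 9.35 and 11.31 FPKM. ATF5, just past the limit and under it with median-ratio and quantile scaling, was at 42.61, 65.49 and 89.00 FPKM, and CEBPB, a C/EBP partner of ATF4, at 28.11, 53.10 and 60.64 FPKM. CREB3L2, a membrane-bound factor of the secretory pathway, was the member below vehicle, at 12.65, 9.68 and 9.70 FPKM. Of 6 secreted hormones tied to the response, 4 passed the filter and these were at least 2-fold higher. INHBE, an activin subunit, was at 29.64, 82.16 and 80.50 FPKM. STC2, a stanniocalcin, was at 0.65, 1.75 and 2.62 FPKM and passed the filter only through the 10 µM library, so it had to be higher.

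Genes for making and importing amino acids were mostly above vehicle. Among 15 genes of serine, glycine, one-carbon and asparagine metabolism, 14 were above vehicle, 9 at least 1.5-fold and 1 at least 2-fold higher, and the median was 0.61. The member past 2-fold was ASNS, asparagine synthetase, at 75.40, 192.11 and 240.05 FPKM. PHGDH, PSAT1 and PSPH, the 3 enzymes of serine synthesis, had ratios of 1.69, 1.84 and 1.76; PHGDH was at 173.66, 286.81 and 293.99 FPKM. The mitochondrial enzyme MTHFD2 was at 135.59, 163.29 and 147.07 FPKM, and the cytosolic enzyme MTHFD1 at 102.55, 96.58 and 88.95 FPKM, the member below vehicle. PCK2, mitochondrial phosphoenolpyruvate carboxykinase, was at 29.49, 68.99 and 72.20 FPKM, a ratio of 2.45.

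Of 14 amino acid transporter genes, 4 were at least 2-fold higher and 0 lower, with a median of 0.44. SLC3A2 and SLC7A5, the chains of the large neutral amino acid exchanger, stood at 55.21, 110.55 and 127.83 FPKM and at 38.31, 73.62 and 87.43 FPKM. SLC6A9, a glycine transporter, was at 3.76, 9.20 and 10.73 FPKM. SLC7A11, the cystine transporter often counted with this group, was at 2.63, 3.01 and 2.53 FPKM and so was near its vehicle level. Genes of tRNA synthetases, which load amino acids onto tRNAs, lay on both sides of vehicle. The 20 cytosolic genes had a median of 0.14, with 14 above vehicle and WARS, for tryptophan, at 59.27, 112.95 and 136.18 FPKM, while QARS, for glutamine, was at 78.10, 72.05 and 57.31 FPKM. The 17 mitochondrial genes had a median of −0.11, with 8 above vehicle and 0 past 1.5-fold either way.

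Of 7 genes of the GADD list, which gathers feedback and growth arrest genes, 3 were at least 2-fold higher and 0 lower, with a median of 0.45. PPP1R15A (GADD34), which returns eIF2 to its active form, was at 17.99, 41.20 and 50.17 FPKM, and GADD45A, a stress sensor, at 34.29, 73.31 and 88.63 FPKM. DDIT4 and SESN2, which restrain the growth kinase mTORC1, stood at 16.78, 55.14 and 49.88 FPKM and at 14.50, 30.23 and 28.12 FPKM, in each case slightly higher at 5 µM than at 10 µM. Their list of 9 mTORC1 restraint genes had 1 past 2-fold and 3 below vehicle, and its median of 0.05 was that of all genes. Of 24 folding genes of the endoplasmic reticulum, 0 passed 2-fold and the median was −0.04, with HSPA5 (BiP) at 180.45, 156.71 and 172.78 FPKM. XBP1 was at 60.77, 90.44 and 95.77 FPKM. The 31 proteasome genes had 0 past 1.5-fold and a median of 0.02, which was below 0 under median-ratio scaling and quantile normalization.

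**Figure D3:**
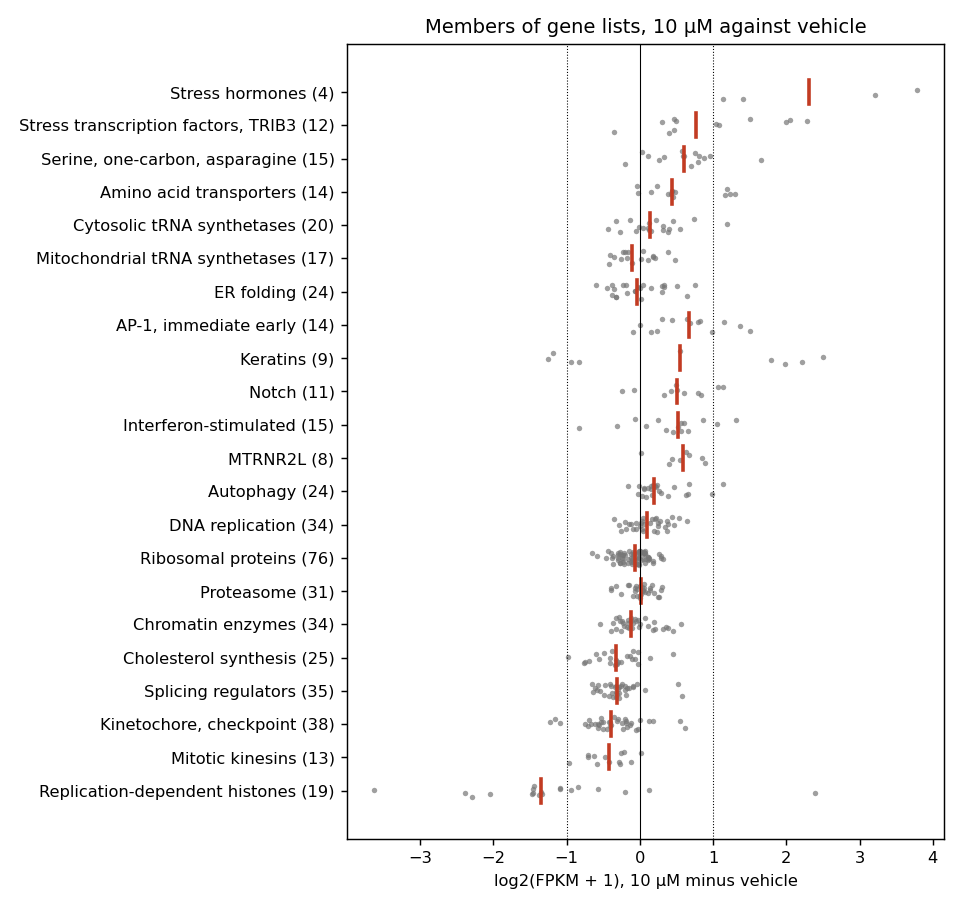
Each grey point is a member of a gene list and the red bar is the list's median, as the log2(FPKM + 1) difference between 10 µM and vehicle, with the number of members past the filter in brackets. Stress hormones and stress transcription factors have their medians at 2.31 and 0.77, ribosomal proteins and the proteasome lie close to 0, and replication-dependent histones have their median at −1.36.

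A group of epithelial and squamous genes was higher, most of them from low vehicle levels. Among 9 keratin genes past the filter, 4 were 2-fold higher or more and 2 lower by as much. KRT14 and KRT16, keratins of basal and activated epidermis, stood at 0.04, 2.01 and 4.87 FPKM and at 0.23, 2.20 and 4.71 FPKM, and both passed the filter only through the 10 µM library. KRT80 and KRT7 stood at 39.17, 112.28 and 157.53 FPKM and at 5.74, 14.77 and 22.26 FPKM. In the opposite direction, KRT8 and KRT18, the pair that forms filaments in simple epithelia, stood at 4.81, 1.12 and 1.44 FPKM and at 2.83, 0.60 and 0.68 FPKM; KRT18 passed the filter only through the vehicle library. KRT15 was the most abundant keratin with vehicle per kilobase, at 126.98, 84.92 and 65.58 FPKM, and KRT80 was the most abundant at 10 µM. KRT19 was at 5.14, 3.34 and 2.46 FPKM.

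Of 11 other epithelial surface genes past the filter, 4 were at least 2-fold higher and 0 lower, with a median of 0.42. A further 8 lay under the filter, 5 of them below vehicle and 3 above, with EPCAM, an epithelial adhesion protein, at 0.24, 0.03 and 0.03 FPKM and the mucin gene MUC1 at 0.90, 0.52 and 0.31 FPKM. MUC13, a membrane mucin, was at 1.13, 5.69 and 12.33 FPKM. CSTA, a protease inhibitor of the cornified envelope, was at 10.08, 33.72 and 47.80 FPKM, a ratio of 4.74, and DMKN, dermokine, at 1.62, 4.13 and 7.68 FPKM. CLDN4, a tight junction protein, was at 0.58, 1.47 and 2.33 FPKM. PKP1, a desmosome protein, was at 0.29, 1.44 and 2.05 FPKM, and ESRP1, an epithelial splicing regulator, at 0.23, 1.64 and 2.49 FPKM. DMKN, PKP1 and ESRP1 were not members of this list and were named with their values known. CLDN4, PKP1 and ESRP1 were under 1 FPKM with vehicle and passed the filter only through the 10 µM library. Others were near vehicle: TJP1, a tight junction scaffold, was at 7.33, 6.05 and 7.31 FPKM, and SFN, stratifin, at 1.16, 1.07 and 1.05 FPKM.

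**Figure D4:**
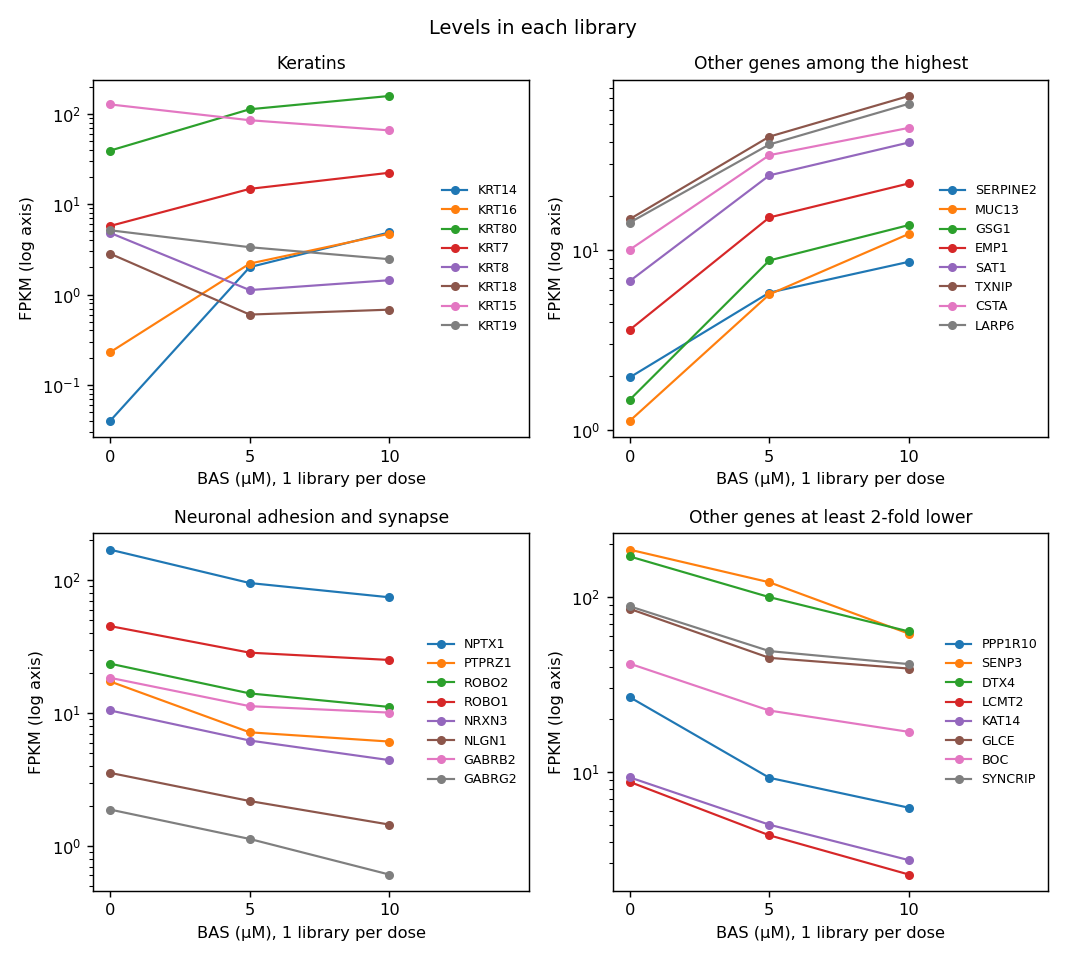
Points give FPKM on a log axis in the vehicle library (0 µM) and at 5 and 10 µM BAS, 1 library each, for 8 genes in each panel, and lines join the values of a gene. The keratins cross, with KRT14 and KRT16 at 0.04 and 0.23 FPKM with vehicle and 4.87 and 4.71 FPKM at 10 µM while KRT8 and KRT18 lie lower at 10 µM, and all 16 genes of the lower panels are below vehicle in both treated libraries.

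Several genes of protease inhibitors were past the limit, as were a ligand and a feedback inhibitor of the EGF receptor. Of 5 serpin genes past the filter, 3 were at least 2-fold higher, SERPINB8 not after quantile normalization; this family was picked after its values were seen. SERPINE2, a protease nexin, was at 1.97, 5.82 and 8.63 FPKM, a ratio of 4.38. HBEGF, a ligand of the EGF receptor, was at 5.91, 12.40 and 15.12 FPKM. ERRFI1, a feedback inhibitor of that receptor, was at 18.53, 39.00 and 56.97 FPKM. The gene of the receptor itself, EGFR, lay under the filter, at 0.08, 0 and 0 FPKM. EMP1, a membrane protein of epithelia, was at 3.62, 15.21 and 23.50 FPKM. CYR61, a matrix-associated YAP target, was at 66.56, 168.90 and 162.78 FPKM, whereas ANKRD1, a target of the same pathway, was at 139.64, 218.33 and 169.01 FPKM. Of 16 genes of the YAP and TAZ list, 12 passed the filter. All 12 were above vehicle, but 1 passed 2-fold and the median was 0.35. CTGF, at 0.94, 1.93 and 2.44 FPKM, passed the filter only through the 10 µM library, so it had to be higher. Under the filter, YAP1 and NUAK2 were below vehicle and AXL and TGFB2 above.

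Genes of the MAPK cascades differed little and their transcriptional outputs were mixed. Of 27 kinases, GTPases and adaptors, 1 was at least 2-fold lower and 0 higher, with a median of −0.06. That gene was MAP2K6, a kinase that activates p38, at 7.45, 4.63 and 2.89 FPKM. Of 14 AP-1 and immediate early genes, 3 were at least 2-fold higher, 8 at least 1.5-fold, and 13 were above vehicle, with a median of 0.67. JUND was at 59.88, 91.89 and 119.77 FPKM, JUN at 30.44, 50.56 and 53.74 FPKM, and EGR1 at 4.19, 6.02 and 10.49 FPKM. FOS was at 0.33, 0.92 and 2.44 FPKM, and so rested on low values. FOS and MAFF, the latter at 0.88, 0.73 and 1.31 FPKM, passed the filter only through the 10 µM library, so both had to be higher. Among 11 dual-specificity phosphatase genes, which switch off MAP kinases, 6 were higher by 1.5-fold or more and 2 lower by as much. DUSP2 was at 8.49, 13.23 and 20.10 FPKM, DUSP7 at 38.31, 22.72 and 20.47 FPKM, and DUSP6, a usual readout of ERK, at 41.64, 43.28 and 40.82 FPKM. The 13 ERK output genes had a median of −0.03, with SPRY4 at 2.81, 4.02 and 4.87 FPKM and PHLDA1 at 30.67, 20.71 and 18.51 FPKM.

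Genes that respond to metabolic and redox state had a few members past the limit. TXNIP, an arrestin-like inhibitor of glucose uptake, was at 14.90, 42.73 and 71.85 FPKM, a ratio of 4.82. SAT1, which acetylates polyamines for export or breakdown, was at 6.75, 26.05 and 39.65 FPKM, and SMOX, spermine oxidase, at 1.07, 2.88 and 3.01 FPKM, while AMD1, an enzyme of polyamine synthesis, was at 28.45, 20.05 and 19.24 FPKM. Of 26 genes of glycolysis and hypoxia, 1 passed 2-fold, and the median of −0.05 was above 0 after quantile normalization. MT2A and MT1X, metallothioneins that bind zinc, stood at 20.01, 35.38 and 57.26 FPKM and at 12.70, 26.37 and 29.82 FPKM, and were the 2 of 6 genes of the metallothionein and zinc list past 2-fold (median 0.50). NQO1, a target of NRF2, was at 5.07, 8.59 and 11.23 FPKM and was the member of 23 antioxidant genes past 2-fold, a call it lost under median-ratio, common-total and quantile scaling. SQSTM1, an autophagy receptor, was at 79.09, 138.64 and 174.24 FPKM, and 21 of 24 autophagy genes were above vehicle with a median of 0.19. Of these 21, MAP1LC3B2, at 0.74, 0.84 and 1.70 FPKM, passed the filter only through the 10 µM library, so it had to be higher. FTH1 and FTL, the ferritin chains, together made 1930, 2797 and 3150 FPKM.

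Genes that tune signalling at the membrane and in the nucleus were found among the higher ones. KLF2, a zinc-finger factor, was at 10.35, 33.36 and 39.82 FPKM, and it was the 1 of 10 KLF genes past 2-fold, while 9 were above vehicle. Of these 9, KLF5, at 0.95, 1.51 and 2.42 FPKM, passed the filter only through the 10 µM library, so it had to be higher. TSC22D3 (GILZ), known as a glucocorticoid-induced factor, was at 14.04, 41.95 and 40.66 FPKM, level between the doses. RHOB, a small GTPase induced by stress, was at 117.32, 247.23 and 280.08 FPKM. RHOB was thus one of the few abundant genes past the limit. RGS16, which speeds the shut-off of G proteins, was at 4.15, 10.36 and 13.05 FPKM, whereas RGS3 of the same family was at 45.74, 32.23 and 23.45 FPKM. IL11RA, a cytokine receptor chain, was at 3.76, 10.73 and 12.46 FPKM, and the kinase gene BMX at 3.19, 9.44 and 10.70 FPKM. IFI30, a lysosomal thiol reductase, was at 62.55, 107.07 and 132.15 FPKM. The 27 lysosome genes had 22 above vehicle, 0 past 2-fold and a median of 0.12, with the sialidase gene NEU1 at 19.99, 24.10 and 32.49 FPKM.

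Genes of cholesterol synthesis were mostly below vehicle, without large ratios. Of 25 genes of cholesterol synthesis, 2 were above vehicle, 5 were at least 1.5-fold lower, and the median was −0.32. HMGCS1, an early enzyme of the pathway, was at 45.42, 28.46 and 27.76 FPKM, and INSIG1, its feedback regulator, at 25.93, 16.23 and 14.89 FPKM. HSD17B7 was at 11.84, 7.69 and 5.54 FPKM. On the efflux side, 1 of 10 genes past the filter was at least 2-fold higher, with a median of 0.27. That gene was APOC1, at 6.31, 22.70 and 28.40 FPKM. APOE, its neighbour in the same apolipoprotein cluster, was at 0.54, 1.12 and 1.65 FPKM and passed only through the 10 µM library. SREBF1, at 27.02, 20.33 and 19.31 FPKM, was the member below vehicle. The transporter genes ABCA1 and ABCG1 lay under the filter, at 0.29 FPKM or lower in every library.

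Replication-dependent histone genes and genes of mitosis were mostly below vehicle. Of 41 histone genes with a row, 19 passed the filter; 13 of these were at least 2-fold lower and 1 higher, with a median of −1.36. Copies with identical values in all 3 libraries (HIST2H2AA3 and HIST2H2AA4, HIST2H4A and HIST2H4B) enter that count separately, and with each such pair counted as 1 gene 11 of 17 were lower. Of the 13, 4 passed the filter only through the vehicle library. HIST1H2BK was at 69.20, 22.26 and 12.44 FPKM and HIST1H1C, a linker histone, at 67.94, 32.89 and 25.55 FPKM. Near-identical copies make single histone genes uncertain: HIST1H4J had 11.32 FPKM in the vehicle library and was listed at 0 with BAS at either dose, while its copy HIST1H4K was listed at 0, then at 8.31 and 4.23 FPKM. Of 38 kinetochore, spindle and checkpoint genes, 3 were at least 2-fold lower and 5 were above vehicle, with a median of −0.40. PLK1, a kinase of mitotic entry, was at 71.25, 32.74 and 33.04 FPKM, HMMR at 17.06, 7.80 and 6.76 FPKM, and ASPM, a spindle pole protein, at 12.23, 4.45 and 4.92 FPKM. CENPM and SPC24, of the centromere and the outer kinetochore, went the other way, at 18.19, 26.16 and 28.37 FPKM and at 19.78, 29.11 and 29.29 FPKM. The 13 mitotic kinesin genes had a median of −0.43. The 34 DNA replication genes did not share this, with 24 above vehicle and a median of 0.10, where that of all genes was 0.05.

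The promoters of these groups differed in their letters from promoters at large. Among 43 matched promoters of the 51 kinesin and kinetochore genes, 20 (46.5%) held TTTGAA, the core of the cell cycle genes homology region, on either strand, where 11.9% of all matched promoters did. The letters CCAAT, a site of NF-Y, were in 34 of the 43 (79.1%) and in 42.3% of all. For the 19 histone genes, TATAAA was in 13 promoters (68.4%), where 7.69% of all held it, and CCAAT in 14 (73.7%). Expression values entered these shares through the filter, and the lists were chosen with earlier results of these data known. The 19 histone promoters count the copies with identical values separately.

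Splicing regulators and abundant housekeeping genes were also below vehicle. Of 35 splicing regulator genes, 3 were above vehicle and 3 were at least 1.5-fold lower, with a median of −0.32. SRSF3, an SR protein, was at 136.05, 100.22 and 89.09 FPKM, HNRNPA1 at 1218.81, 925.41 and 781.49 FPKM, and RBM3, a cold-induced RNA-binding protein, at 140.54, 122.40 and 89.45 FPKM. The 3 above vehicle were RBM5 and the kinases of SR proteins CLK1 and CLK3, with CLK1 at 10.92, 13.27 and 16.75 FPKM. SYNCRIP, hnRNP Q, was at 88.31, 49.01 and 41.29 FPKM. Of 76 cytosolic ribosomal protein genes, 24 were above vehicle and the median was −0.07; together they made 24.5%, 25.3% and 23.1% of all FPKM. RPL41 was the largest loss in FPKM, at 4871.51, 4010.92 and 3092.99, and GAPDH was next, at 4423.66, 3612.26 and 3336.99 FPKM. The largest gains were in MTRNR2L2 and MTRNR2L8, nuclear copies of mitochondrial ribosomal RNA, at 5488.94, 7725.21 and 8512.11 FPKM and at 3194.72, 4318.95 and 4674.50 FPKM. The 8 MTRNR2L genes, near-copies of each other and of the mitochondrial transcript and so uncertain as single genes, made 2.44%, 3.22% and 3.62% of all FPKM.

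Single genes far below vehicle came from several functions. PPP1R10 (PNUTS), a nuclear partner of protein phosphatase 1 in transcription termination, was at 26.71, 9.25 and 6.24 FPKM, a ratio of 0.234. SENP3, a nucleolar SUMO protease, was at 186.12, 121.18 and 61.61 FPKM, a ratio of 0.331. Of 17 SUMO pathway genes it was the member past 2-fold. DTX4, an E3 ligase of the Notch pathway, was at 170.18, 99.69 and 63.45 FPKM. BOC, a co-receptor for hedgehog ligands, was at 41.52, 22.41 and 16.93 FPKM. GLCE, an epimerase of heparan sulfate synthesis, was at 85.40, 44.84 and 38.94 FPKM, and KAT14, of an acetyltransferase complex, at 9.30, 4.99 and 3.13 FPKM. In the Notch list, in contrast to DTX4, 9 of 11 genes were above vehicle and 2 at least 2-fold higher, with the ligand gene JAG1 at 8.45, 16.39 and 19.70 FPKM and HES6 at 32.18, 49.37 and 68.70 FPKM. Of these 9, HEY1, at 0.97, 1.06 and 1.80 FPKM, passed the filter only through the 10 µM library, so it had to be higher.

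Further lower genes included regulators of transcription, the nuclear envelope and ion flow. ETV6, an ETS repressor, was at 5.66, 3.27 and 1.96 FPKM, and DACH1 at 10.42, 6.38 and 4.38 FPKM. RFX3, a factor of ciliated cells, was at 2.93, 1.67 and 0.67 FPKM and passed the filter only through the vehicle library, so it had to be lower. HOXA7 was at 15.85, 9.10 and 7.21 FPKM, while the other 9 HOXA genes past the filter lay within 1.5-fold of vehicle. SUN2, which ties the nuclear envelope to the cytoskeleton, was at 13.69, 6.43 and 5.92 FPKM, and PTP4A2, a membrane-anchored phosphatase, at 113.40, 83.98 and 54.77 FPKM. KCNK3, a background potassium channel, was at 52.15, 30.63 and 24.79 FPKM. KCNJ4, an inward rectifier, was at 8.97, 6.99 and 2.77 FPKM, so most of its difference lay between the doses. Neither channel gene was in the ion channel list, where 0 of 23 genes past the filter passed 2-fold either way. That list had 10 genes above vehicle, 13 below and a median of −0.06. EIF4A2, a helicase of translation initiation, was at 153.45, 110.14 and 81.74 FPKM, and its paralog EIF4A1 at 647.47, 525.84 and 426.56 FPKM. In the mitochondrion, by contrast, 0 of 38 genes of respiratory complex I passed 1.5-fold, with a median of −0.06, and 0 of 34 genes of the other complexes did, with a median of −0.13. Chromatin enzymes were as close to vehicle, with 0 of 34 past 1.5-fold and a median of −0.12.

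Neuroendocrine and neuronal genes split. Of 18 neuroendocrine genes, 2 were at least 2-fold higher: CHGA, chromogranin A, at 1.91, 4 and 6.41 FPKM, and UCHL1, a neuronal ubiquitin hydrolase, at 82.21, 131.19 and 176.51 FPKM. SYP, synaptophysin, was at 17.30, 12.77 and 13.25 FPKM, and SYT1, a calcium sensor of vesicle release, at 6.35, 3.70 and 3.46 FPKM. Genes of synaptic adhesion were lower in families picked after their values were seen. All 4 neurexin and neuroligin genes past the filter were below vehicle, with NRXN3 at 10.47, 6.22 and 4.43 FPKM. All 4 GABA-A receptor subunit genes past the filter were below vehicle, with GABRB2 at 18.43, 11.28 and 10.09 FPKM. NPTX1, a pentraxin that clusters glutamate receptors, was at 169.75, 95.24 and 74.41 FPKM, and PTPRZ1, a receptor phosphatase of glia and neural precursors, at 17.30, 7.17 and 6.11 FPKM. NPTXR, the other neuronal pentraxin gene past the filter, was above vehicle, with a log2 difference of 0.63. The axon guidance receptors divided, with ROBO2 at 23.55, 14.07 and 11.13 FPKM and ROBO1 at 45.16, 28.50 and 25.12 FPKM, but ROBO3 at 4.12, 6.03 and 7.76 FPKM. ROBO4 was at 0.97, 2.40 and 2.69 FPKM and passed the filter only through the 10 µM library, so it had to be higher.

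Interferon and cell death genes had a few high members. Of 15 interferon-stimulated genes, 12 were above vehicle and 2 at least 2-fold higher, ISG15 at 4.71, 10.31 and 10.82 FPKM (not past the limit after quantile normalization) and IFI35 at 1.97, 6.19 and 6.37 FPKM. BST2, at 0.91, 2.29 and 1.82 FPKM, passed the filter only through the 10 µM library, so it had to be higher. IFITM3, at 1.27, 1.22 and 0.83 FPKM, passed only through the vehicle library, so it had to be lower. OAS1, the most abundant member per kilobase, was at 926.48, 665.92 and 519.07 FPKM, so that the list's median of 0.52 and its summed level of 1032 and 664 FPKM had opposite signs. Of 25 apoptosis genes, 2 were at least 2-fold higher, among them BMF, a BH3-only activator of cell death, at 4.63, 9.16 and 12.46 FPKM. MCL1 was at 42.27, 43.15 and 44.93 FPKM. CDKN1A (p21) was at 155.92, 158.99 and 202.17 FPKM, a ratio of 1.30.

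Some calls rest on symbols that share sequence with others. A transcript was found for 98.7% of the symbols, and in 274 of these (2.41%) at least 50% of the 50-base sequences recurred elsewhere in another gene. The share was 6 of 150 matched higher genes (4%) and 15 of 75 matched lower genes (20%). Without such genes the counts were 145 higher and 62 lower. The 4 near-identical FAM72 genes were all below vehicle, FAM72B at 14.81, 7.13 and 5.14 FPKM. Of 29 read-through symbols, which join neighbouring genes, 5 were at least 2-fold lower and 1 higher. NME1-NME2 was at 20.98, 11.49 and 5.53 FPKM, while its parents were near vehicle, NME1 going from 297.52 to 331.35 FPKM and NME2 from 639.58 to 651.75 FPKM between vehicle and 10 µM.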

How the data were processed

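RNA-seq libraries were made from H446 cells after 48 h with vehicle, 5 µM or 10 µM BAS, 1 library per group. Per the file headers, the authors deposited FPKM for each gene symbol. The submitters' processing notes name the build hg19 and the tools Bowtie2, BWA, Cuffdiff, Cufflinks and Trim Galore, with no roles or order. Their versions, the annotation and any between-library scaling: not given in the sources used here. Rows of 2 duplicated, date-like symbols were summed, giving 16793 symbols. From these values log2(FPKM + 1) was computed, and genes averaging 1 FPKM or more in the vehicle and 10 µM libraries were compared at a limit of 2-fold. No test was run. The members and gene lists were chosen with earlier results of these data known, and the serpin, FAM72, GABA-A, neurexin and neuroligin, neuronal pentraxin, ROBO, HOXA, RGS, elastic fibre and read-through groups after their values were seen.

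Named genes were the 30 highest and 30 lowest differences, the 12 largest FPKM gains and losses, the members of each list with the largest differences (6 at most), every member past 2-fold, symbols listed at 0 in 1 library and the 3 genes on each side of the filter. Other genes in the text were chosen as list members or neighbours with their values known. Shared 50-base sequences came from GENCODE 29, and promoters and gene order from RefSeq (GRCh38.p14), both matched by symbol since the authors' build is hg19. Promoters matched for 9436 of 11517 genes (81.9%). Of 11 motifs searched on both strands, results are given for TGATGNAAN (ATF4 with C/EBP), the cell cycle element (TTTGAA), the NF-Y element (CCAAT) and the TATA box (TATAAA). Results for the higher stress list members are also given for AP-1 (TGANTCA), E2F (TTTCCCGC) and the metal element (TGCNCNC). The others were the CRE (TGACGTCA), the sterol element (TCACNCCAC), the antioxidant element (TGACNNNGC) and the KLF-type element (CCACCC). Sites of different motifs could share bases. For all 151 higher genes 79.5% had a promoter, so their motif shares are void and not given. Alternatives were a filter at 5 FPKM or none, pseudocounts of 0.1 and 0.5, limits of 1.5-fold and 4-fold, median-ratio, common-total and quantile scaling, and duplicated symbols left out; leaving out genes with shared sequence or read-through symbols was added after seeing the data. The size rule was tested on simulated data. Scripts ran in Python 3.11.15 with pandas 2.3.3, numpy 2.4.6, matplotlib 3.10.9 and scipy 1.17.1. Some genes are not reported here.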

Additional observations from a re-analysis of the deposited data

How the results depend on the processing

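The counts of 151 higher and 77 lower genes moved most with the pseudocount, the filter and the limit. They were 271 and 150 with a pseudocount of 0.1, 91 and 44 with a mean of at least 5 FPKM, 695 and 401 at 1.5-fold, and 18 and 4 at 4-fold. Under median-ratio scaling they were 134 and 88, with a common total 142 and 79, and after quantile normalization 127 and 92; of the 228 called genes, 17, 9 and 24 were no longer past the limit. Without genes of shared sequence they were 145 and 62, and without read-through symbols 150 and 72. No called gene changed direction under the alternatives run. List medians near 0 (mTORC1 restraint, heat shock, proteasome, iron, glycolysis, receptor tyrosine kinases, lineage factors and the citrate cycle) changed sign under at least 1 scaling. No paired analysis was possible because there was 1 library per group, and leaving out a library leaves no comparison. Because the depth is unknown, the counting error of low genes could not be estimated.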

Other observations

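Genes of the elastic fibre, a family picked after its values were seen, were mostly above vehicle: 11 of 12 past the filter, 4 of them at least 1.5-fold and 1 at least 2-fold higher, with a median of 0.45. MFAP4, a microfibril protein, was at 721.94, 1153.3 and 1525.26 FPKM in the vehicle, 5 µM and 10 µM libraries. ELN, elastin, the most abundant member per kilobase, was at 1976.1, 2160.2 and 2309.1 FPKM, a ratio of 1.17. LOX, which cross-links elastin and collagen, was at 18.10, 27.17 and 35.62 FPKM, and FBLN5, a fibulin, at 3.15, 4.28 and 6.67 FPKM. LARP6, which binds collagen mRNAs, was at 14.25, 38.66 and 65.06 FPKM, a ratio of 4.57. The collagen genes had smaller ratios, with COL3A1 at 297.04, 433.94 and 453.79 FPKM and COL1A2 at 389.39, 412.40 and 370.87 FPKM.

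Some genes past 2-fold were neighbours in RefSeq gene order. Among 11390 adjacent pairs of genes past the filter, 9 had both members higher, 9 both lower and 3 one of each. The higher pairs were GSG1 with EMP1, KRT80 with KRT7, FOS with JDP2, MT2A with MT1X, KRT14 with KRT16, PGPEP1 with GDF15, FUT1 with FGF21, MICALL1 with C22orf23 and CLDN4 with METTL27. GSG1 was at 1.48, 8.78 and 13.80 FPKM, and PGPEP1, a peptidase next to GDF15, at 2.10, 4.58 and 5.30 FPKM, a call it lost under median-ratio and quantile scaling. Of the lower pairs 8 were histone genes, 4 of them built from the copies HIST2H4A and HIST2H4B and HIST2H2AA3 and HIST2H2AA4, which had identical values within each pair of copies, and the other was KRT8 with KRT18. The pair HTD2 and RPP14 went opposite ways, and 86.9% of the 50-base sequences of HTD2 recurred in another gene: between vehicle and 10 µM, HTD2 went from 2.75 to 0.64 FPKM and RPP14 from 1.05 to 3.38 FPKM, and the sum of both was 3.8, 4.7 and 4.02 FPKM in the 3 libraries.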
